A study of Sus scrofa with 16 samples.

Results

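The hippocampi of preterm pigs with necrotizing enterocolitis (NEC) at either site of the gut were set as one group against those of pigs without NEC. Of the 16 pigs measured, 11 had NEC and 5 did not. The NEC group pooled the 6 pigs labelled siNEC (Si-NEC), with severe lesions in the small intestine, with the 5 labelled coNEC (Co-NEC), with severe lesions only in the colon. The 5 pigs labelled noNEC (No NEC) had no macroscopic lesion. The pooling was taken further for genes that differed from No NEC in the same direction in both NEC groups. All 16 were crossbred pigs born preterm by caesarean section, fed human donor milk with parenteral nutrition, and killed in the second week of life, and NEC arose without an added agent. Females numbered 3 in Si-NEC and 2 in each of the other groups, and 3 pigs per group were male. By the study's definition a Si-NEC pig may also have had colon lesions, so the groups may differ in the extent of lesions as well as in site. The labels used here give no lesion score. The pigs came from several sows, and the labels used here do not tie a pig to a litter. RNA of the left hippocampus was sequenced, and the authors deposited 1 value per gene and pig in FPKM, a read count scaled by gene length and sequencing depth.

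NEC is an inflammatory disease of the immature gut in which the bowel wall bleeds and dies, and its survivors often show impaired neurodevelopment. The hippocampus, needed for memory and spatial learning, is still forming neurons, synapses and myelin around term. Gut inflammation can reach it through circulating cytokines, bacterial products, lactate and reduced blood flow. Glia, endothelium and neurons respond to these with heat shock, hypoxia, interferon and neurotrophin genes, among others. In whole tissue, fewer cells of a type and less RNA per cell cannot be told apart.

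The question was which hippocampal genes go with NEC as such, whatever the lesion site. Of 13590 entries tested with limma on log2(FPKM + 0.5), 0 had an adjusted p under 0.2 and 0 under 0.05. The smallest adjusted p was 0.901. An unadjusted p under 0.05 was reached by 582 entries, 4.28% of those tested, where 679.5 are expected by chance. Of these, 357 were higher in NEC pigs (2.63% of all entries) and 225 lower (1.66%). This balance turned to 294 higher and 318 lower when the pigs were rescaled by the median of ratios. Across all entries the median difference, any NEC minus No NEC, was 0.01 on the log2 scale, with quartiles of −0.10 and 0.13. The 95% interval of the difference lay wholly within a factor of 1.5 for 9860 entries (72.6%) and within a factor of 2 for 12550 (92.3%). The transcriptomes of the 11 NEC and 5 No NEC pigs were not separated at 0.05 (pseudo-F 1.163, one-sided exact permutation test over 4368 splits, p = 0.147).

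**Figure D1:**
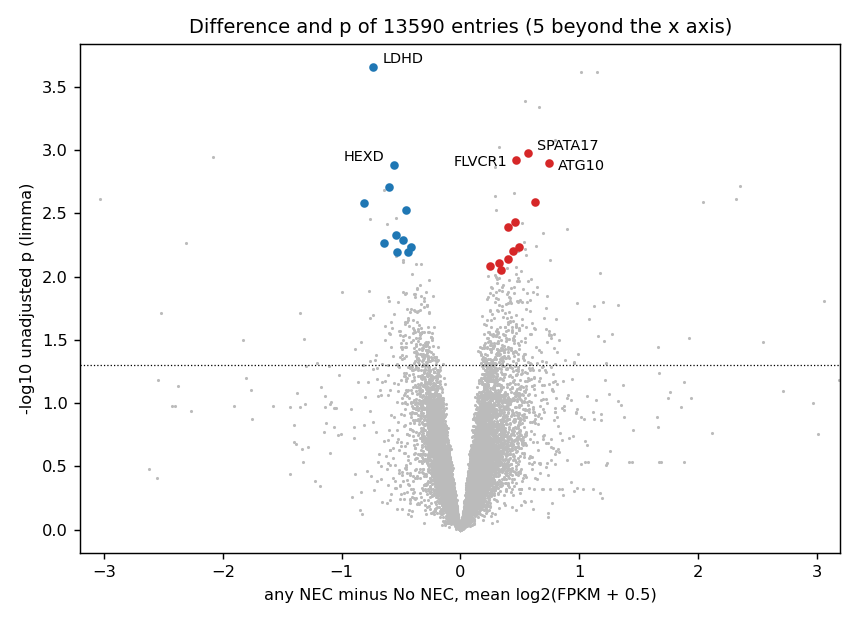
Each of the 13590 entries is a point, with the difference of any NEC from No NEC in mean log2(FPKM + 0.5) on the x axis and −log10 of the unadjusted limma p on the y axis. The dotted line marks an unadjusted p of 0.05, the 12 named higher genes are red and the 11 named lower genes blue. LDHD stands highest, and no entry has an adjusted p under 0.2.

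The 2 lesion sites were then read side by side. Against No NEC, an unadjusted p under 0.05 was reached by 2.61% of entries with Si-NEC and 3.44% with Co-NEC. Between the lesion sites that share was 5.64%, and 2 entries (0.0147%) had an adjusted p under 0.2 there. Si-NEC and Co-NEC pigs are compared with the same 5 No NEC pigs, so the 2 differences share their controls and lean the same way for that reason. Of the 13590 entries, 9710 (71.4%) differed from No NEC in the same direction at both sites, 5243 higher (38.6%) and 4467 lower (32.9%). Differences of at least 1.5-fold at both sites were found for 117 higher entries (0.861%) and 71 lower entries (0.522%). Of the 582 entries with an unadjusted p under 0.05, 581 had the same direction at both sites, which pooling the sites nearly fixes. The exception was COX1, a subunit of cytochrome c oxidase made in mitochondria, which was listed at 0 in all No NEC and Si-NEC pigs and at a mean of 13394 FPKM in Co-NEC pigs. Such zeros in a gene that every cell uses can be failed estimates.

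Single pigs weighed on these counts. No NEC pig 230-15 and Si-NEC pig 223-15 had the highest FPKM sums, in a range of 544629 to 864931 over the pigs, and pig 230-15 stood apart from the other No NEC pigs in many genes named below. Of the 581 entries with the same direction at both sites, 388 no longer had p under 0.05 without pig 230-15, and 296 without No NEC pig 550-14. An unadjusted p under 0.05 in all 16 fits that each left out 1 pig was kept by 99 entries, 66 higher and 33 lower. The table holds no read counts, so the depth behind each value is unknown.

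No entry had all 11 NEC pigs above the 5 No NEC pigs or all 11 below them (0% of entries tested). In 9 entries (0.0662%) 10 of the 11 NEC pigs lay above every No NEC pig, and in 2 (0.0147%) 10 of 11 lay below. The 2 lower entries were LDHD and 1 of 2 entries of the XRCC3 gene ID, a DNA repair gene. The higher ones with a symbol were ATG10, TAF3, TECTA, ZNF81, NYX and 1 of 2 entries of the MARCHF10 gene ID, and 3 had no symbol. Apart from LDHD and ATG10, they were named after their values were seen. TAF3, a subunit of the general transcription factor TFIID, ranged from 4.75 to 5.60 FPKM in No NEC pigs and from 5.26 to 7.49 in NEC pigs. The zinc finger gene ZNF81 ranged from 1.0 to 1.54 FPKM in No NEC pigs and from 1.51 to 2.27 in NEC pigs. In both genes the overlap came from a single NEC pig.

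The gene with the smallest p was LDHD (ENSSSCG00000002712), which encodes the mitochondrial D-lactate dehydrogenase. D-lactate is formed largely by gut bacteria and is cleared by this enzyme. LDHD was at 4.07, 2.61, 3.21, 4.15 and 3.68 FPKM in the No NEC pigs. Co-NEC pigs had 2.33, 2.04, 2.69, 1.87 and 1.92 FPKM, and Si-NEC pigs 1.15, 1.17, 1.74, 2.1, 2.01 and 2.52 FPKM. Only Co-NEC pig 552-14, at 2.69 FPKM, overlapped with the No NEC pigs, of which pig 228-15 was the lowest. The mean was 1.96 ± 0.487 FPKM (SD, n = 11) with NEC and 3.54 ± 0.643 (SD, n = 5) without. The difference of LDHD on the log2(FPKM + 0.5) scale was −0.73 (SE 0.16, 95% interval −1.06 to −0.40, exact permutation p = 0.000916, limma adjusted p = 0.901). The smallest p this permutation test can give is 0.000458. The difference was −0.85 for Si-NEC and −0.59 for Co-NEC, and the test between the sites gave an unadjusted p of 0.172 (limma). It lay between −0.82 and −0.68 whichever pig was left out, at −0.86 in females and −0.62 in males.

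**Figure D2:**
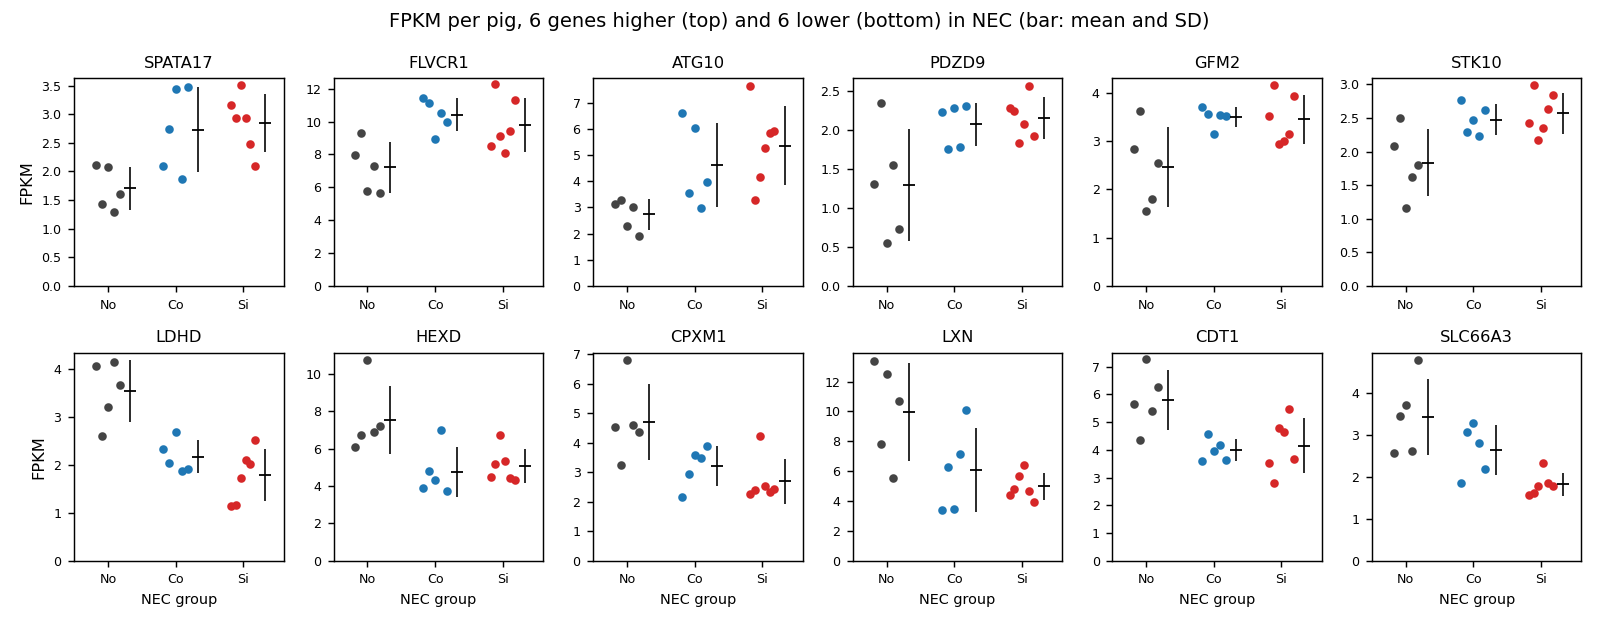
FPKM of each pig (y axis, from 0) in No NEC, Co-NEC and Si-NEC pigs (x axis) for the 6 genes with the smallest p among the 12 named higher in NEC and the 6 among the 11 named lower, with the mean and SD beside the points. In LDHD 10 of 11 NEC pigs lie below all No NEC pigs, in ATG10 10 of 11 lie above them, and in the other panels the groups overlap further.

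The 11 named lower genes were taken by p among entries with a symbol, above 0 in all pigs and lower at both sites. ASS1, argininosuccinate synthase, makes the precursor from which cells regenerate arginine for nitric oxide. It was at 3.49, 2.48, 2.52, 2.85 and 2.71 FPKM in No NEC pigs. It was at 1.92, 2.69, 2.08, 2.73 and 1.94 FPKM in Co-NEC pigs and at 2.23, 1.55, 1.68, 1.93, 1.73 and 1.14 in Si-NEC pigs. All Si-NEC pigs and 3 of 5 Co-NEC pigs lay below every No NEC pig, with differences of −0.59 and −0.26 (Si-NEC against Co-NEC, limma unadjusted p = 0.0444). The pooled difference of ASS1 was −0.44 (SE 0.14, exact permutation p = 0.00504). HEXD, a hexosaminidase that removes terminal sugars, averaged 4.94 ± 1.07 FPKM (SD, n = 11) with NEC against 7.55 ± 1.84 (SD, n = 5) without, with 9 of 11 NEC pigs below every No NEC pig. No NEC pig 230-15 had the highest HEXD value, 10.8 FPKM, and the difference of −0.56 was −0.43 without that pig. CPXM1, a secreted member of the carboxypeptidase family, differed by −0.60 (SE 0.17), with 7 of 11 NEC pigs below all No NEC pigs, and by −0.47 without pig 230-15. NAALADL1, a peptidase gene, differed by −0.54 (SE 0.17). LXN encodes latexin, an inhibitor of carboxypeptidases. Its mean was 5.47 ± 1.97 FPKM (SD, n = 11) against 9.97 ± 3.28 (SD, n = 5), a difference of −0.81 (SE 0.23). SLC66A3, a transporter family gene, was below all No NEC pigs in 8 of 11 NEC pigs. Its difference was −0.74 for Si-NEC and −0.31 for Co-NEC (Si-NEC against Co-NEC, limma unadjusted p = 0.0135).

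TRPA1, an ion channel opened by irritants, averaged 0.631 ± 0.195 FPKM (SD, n = 11) against 1.08 ± 0.293 (SD, n = 5), with 9 of 11 NEC pigs below all No NEC pigs. AMHR2, the receptor of anti-Müllerian hormone, differed by −0.64 (SE 0.20) and by −0.46 without pig 230-15. CDT1 licenses origins for DNA replication and HAUS7 is a subunit of augmin, which builds spindle microtubules. CDT1 averaged 4.08 ± 0.744 FPKM (SD, n = 11) against 5.78 ± 1.08 (SD, n = 5), a difference of −0.46 (SE 0.13). HAUS7 differed by −0.42 (SE 0.13). In both, 7 of 11 NEC pigs lay below all No NEC pigs.

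Among the 12 named higher genes, ATG10 (ENSSSCG00000025210) had the largest difference. It encodes the E2-like enzyme that joins ATG12 to ATG5, a step needed to form autophagosomes. ATG10 was at 3.15, 3.29, 2.30, 3.03 and 1.90 FPKM in No NEC pigs. It was at 6.6, 3.56, 6.05, 2.97 and 3.99 FPKM in Co-NEC pigs and at 7.64, 3.30, 4.18, 5.28, 5.84 and 5.94 in Si-NEC pigs. Co-NEC pig 255-15 was the only NEC pig within the No NEC range, and Si-NEC pig 224-15 lay just above it. The means were 5.03 ± 1.52 FPKM (SD, n = 11) and 2.73 ± 0.603 (SD, n = 5). The difference was 0.75 (SE 0.19, 95% interval 0.34 to 1.15, exact permutation p = 0.00275, limma adjusted p = 0.901), at 0.84 for Si-NEC and 0.63 for Co-NEC.

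FLVCR1 exports heme from cells and GFM2 recycles ribosomes in mitochondria. FLVCR1 was at 7.96, 9.33, 5.79, 7.30 and 5.67 FPKM in No NEC pigs, and ranged from 8.94 to 11.5 in Co-NEC and from 8.11 to 12.3 in Si-NEC pigs. All 11 NEC pigs lay above the No NEC median and 7 above every No NEC pig, pig 228-15 being the highest of these. The difference of FLVCR1 was 0.47 (SE 0.12, exact permutation p = 0.00366). GFM2 averaged 3.47 ± 0.382 FPKM (SD, n = 11) against 2.47 ± 0.829 (SD, n = 5), and its difference of 0.46 was 0.34 without pig 230-15. SPATA17, a calmodulin-binding protein gene first described in testis, was at 2.11, 1.43, 2.08, 1.29 and 1.61 FPKM in No NEC pigs. It ranged from 1.87 to 3.48 FPKM in Co-NEC and from 2.09 to 3.51 in Si-NEC pigs, with 8 of 11 NEC pigs above every No NEC pig. Its difference of 0.57 (SE 0.15) was 0.61 for Si-NEC and 0.53 for Co-NEC.

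CADPS2 primes dense core vesicles, which hold neuropeptides and neurotrophins, for release. CADPS2 was at 11.2, 10.7, 8.85, 10.6 and 8.48 FPKM in No NEC pigs, and 7 of 11 NEC pigs lay above all of them. Its difference was 0.33 (SE 0.11), at 0.25 for Si-NEC and 0.42 for Co-NEC. GALNT13, which starts mucin-type sugar chains on proteins and is known from neurons, lay within 13.2 to 16.5 FPKM in No NEC pigs and 14.9 to 27.8 in NEC pigs. With 9 of 11 NEC pigs above every No NEC pig, its difference was 0.40 (SE 0.13) and the same at both sites. SNX33 acts in endocytosis. It differed by 0.44 (SE 0.14), with 7 of 11 NEC pigs above all No NEC pigs, and by 0.29 without pig 230-15. The kinase gene BMP2K, also linked to endocytosis, differed by 0.49 (SE 0.16), with 8 of 11 above. The kinase gene STK10 has 2 entries under its gene ID, and the one named here differed by 0.40 (SE 0.12). EYA3, a phosphatase and transcription coactivator, had the smallest SE of the 23 named genes, at 6.63 ± 0.597 FPKM (SD, n = 11) against 5.50 ± 0.540 (SD, n = 5), a difference of 0.25 (SE 0.08). SAMD4A, an RNA-binding repressor of translation, differed by 0.34 (SE 0.12), and PDZD9, a PDZ domain gene, by 0.63 (SE 0.18). All 23 named genes kept their direction and an unadjusted p under 0.05 whichever single pig was left out. They were ranked by p among 13590 entries, and none passed the adjusted threshold.

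**Figure D3:**
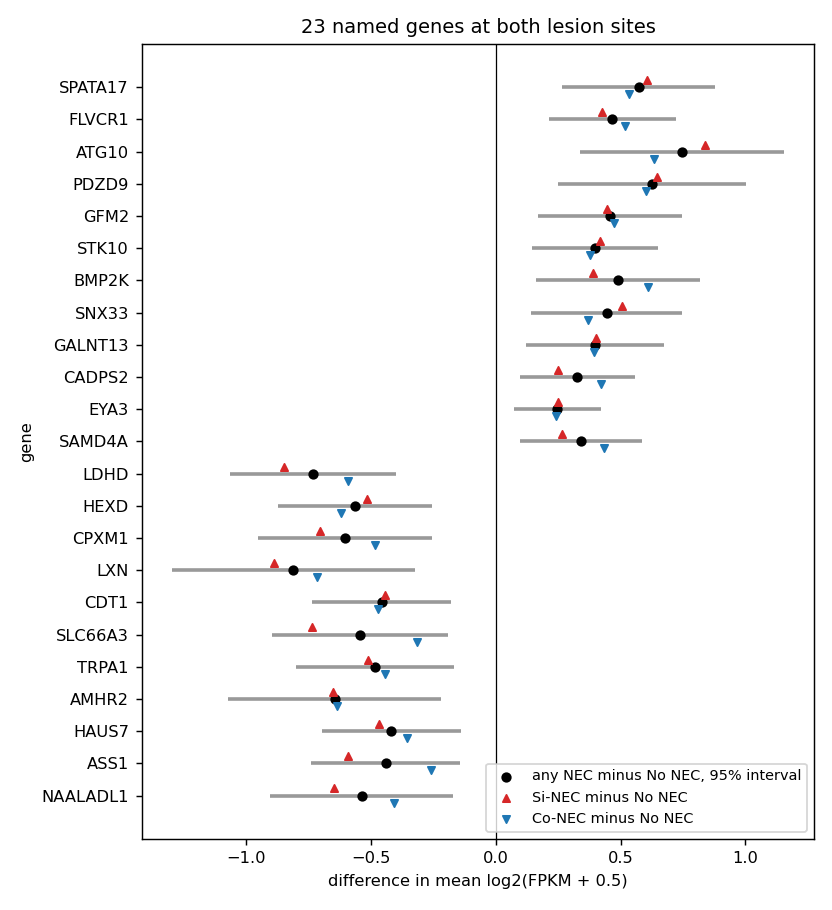
Differences in mean log2(FPKM + 0.5) (x axis) of the 23 named genes (y axis) for any NEC (black, with its 95% interval in grey), Si-NEC (red) and Co-NEC (blue), each minus the same 5 No NEC pigs. All symbols of a gene lie on one side of 0 by the rule that chose the genes. The widest gaps between the sites are those of SLC66A3 and ASS1.

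The NEC difference could also depend on sex, which was tested as an interaction. No entry had an adjusted p under 0.2 in that test, where the smallest was 0.455, while 1334 had an unadjusted p under 0.05 (9.82%). With 2 female and 3 male No NEC pigs this test is coarse. All 6 pigs with numbers ending in 14 were male and all 7 females had numbers ending in 15, so sex and number ending overlap, and the labels do not say what the endings mean. Among the named genes the unadjusted interaction p was smallest for LXN, at 0.00279. The difference of LXN was −1.36 in males and −0.05 in females. PDZD9 differed by 0.96 in males and 0.12 in females (limma, interaction p of 0.00784 before adjustment).

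Lists of genes for cell types and responses covered 416 genes in 32 lists, of which 217 were tested. An unadjusted p under 0.05 was reached by 7 of the 217 (3.23%, against 4.28% of all entries). Those higher in NEC were PDK1, PDK4, DCX, HSPA8, NTRK2 and NGFR, and BDNF was lower. List medians ran from −0.60 to 0.28, against 0.01 over all entries.

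**Figure D4:**
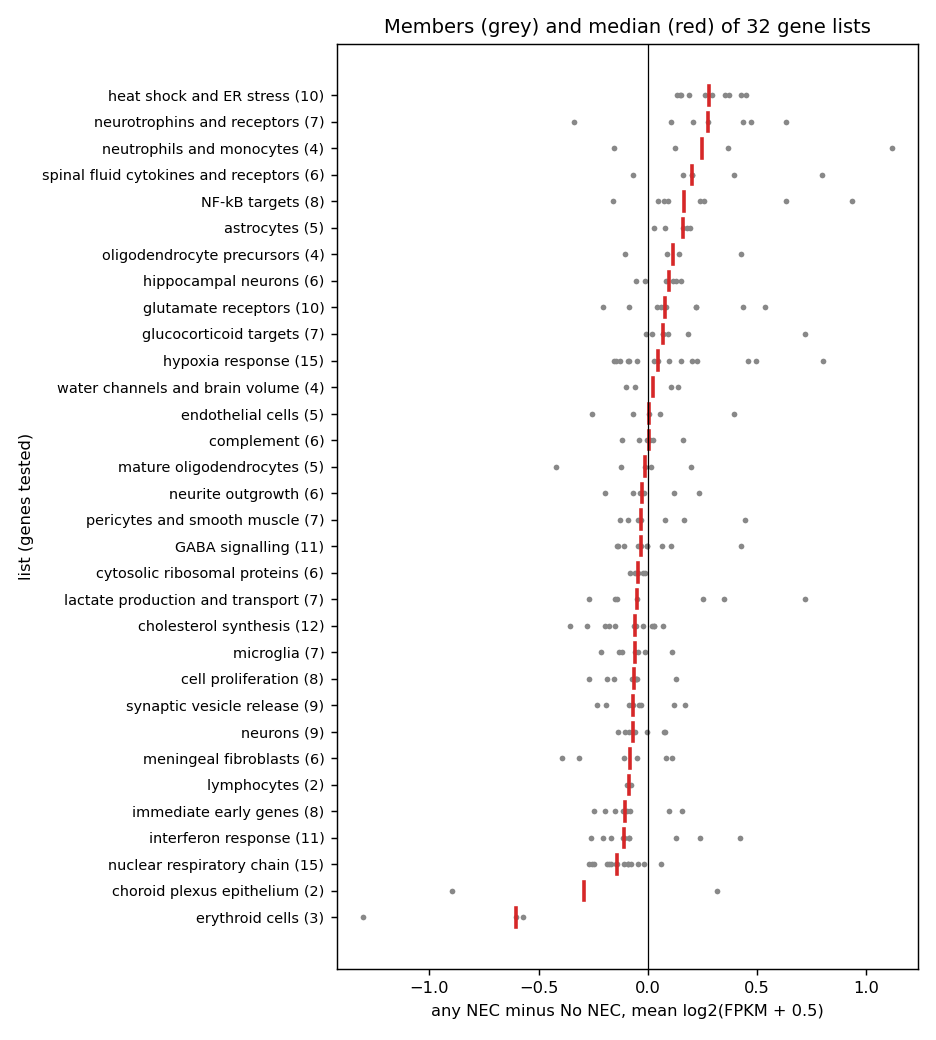
Each row is a list (y axis, with the number of genes tested), each grey point the difference of 1 gene in mean log2(FPKM + 0.5) between any NEC and No NEC pigs (x axis), and the red bar the list's median. All 10 heat shock and ER stress genes lie above 0, and all 3 erythroid genes lie below it. Of all entries, 53.3% lie above 0.

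Heat shock proteins and the chaperones of the endoplasmic reticulum (ER) refold damaged proteins and are made in response to fever, hypoxia and other stress. All 10 members tested had a mean above that of No NEC pigs, against 53.3% of all entries. At both sites 8 of them were higher, against 38.6% of all entries, and the median difference was 0.28. With an unadjusted p under 0.05 there was 1 of the 10, HSPA8, the constitutive member of the HSP70 family. HSPA8 was at 83.7, 133, 83.1, 81.1 and 78.7 FPKM in No NEC pigs. It was at 142, 93.4, 119, 115 and 128 FPKM in Co-NEC pigs and at 185, 148, 97.8, 90.7, 112 and 134 in Si-NEC pigs. All 11 NEC pigs lay above 4 of the No NEC pigs, and pig 228-15 stood with the higher NEC pigs. The difference of HSPA8 was 0.43 (SE 0.16, exact permutation p = 0.0211), and it lay between 0.37 and 0.57 whichever pig was left out.

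In 4 other members, named after their values were seen, No NEC pig 228-15 was again the highest of its group. HSPH1, a partner of HSP70, was at 67.6, 120, 71.9, 55.3 and 64.6 FPKM in No NEC pigs, at 79.7 to 122 in Co-NEC and at 60.9 to 173 in Si-NEC pigs. HSP90B1, the HSP90 of the ER, differed by 0.37 (SE 0.21), DNAJB1 by 0.35 (SE 0.20) and HSPA5, the main ER chaperone, by 0.30 (SE 0.20). In these 4 genes Si-NEC pigs 223-15 and 224-15 were the highest or next to highest of theirs. The sum of all 10 members was highest among No NEC pigs in pig 230-15, at 1825 FPKM, followed by 1761 in pig 228-15. Without pigs 223-15 and 230-15 all 10 members still had a higher mean in NEC pigs, with a median difference of 0.24.

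Pyruvate dehydrogenase kinases inhibit the enzyme complex through which mitochondria break down pyruvate, and more pyruvate can then be turned to lactate. The list of lactate genes held 7 members tested. At both sites 3 were higher and 3 lower, against 38.6% and 32.9% of all entries. PDK4 was at 12.3, 6.06, 9.06, 8.30 and 6.50 FPKM in No NEC pigs. It was at 13.1, 7.95, 10.5, 9.36 and 16.9 FPKM in Co-NEC pigs and at 34.7, 35.1, 6.10, 15.3, 10.4 and 16.4 in Si-NEC pigs. The 2 highest values were those of Si-NEC pigs 223-15 and 224-15, and 6 of 11 NEC pigs lay above all No NEC pigs. The difference of PDK4 was 0.72 (SE 0.34, exact permutation p = 0.0504), at 0.97 for Si-NEC and 0.43 for Co-NEC. It was 1.18 in pigs with numbers ending in 15 and −0.06 in those ending in 14, and 1.41 in females and 0.18 in males (limma, interaction p of 0.0517 before adjustment). Since the pigs ending in 14 were all male, these splits cannot be told apart.

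PDK1 averaged 9.82 ± 1.70 FPKM (SD, n = 11) against 7.74 ± 2.21 (SD, n = 5), a difference of 0.35 (SE 0.15) that was 0.22 without pig 230-15. SLC16A7, the monocarboxylate transporter of neurons, was at 0.409, 0.513, 0.293, 0.366 and 0.544 FPKM in No NEC pigs, and 7 of 11 NEC pigs lay above all of them. The difference of SLC16A7 was 0.25 (SE 0.13). Its mean was 0.606 FPKM in NEC and 0.425 in No NEC pigs. It thus passed the minimum mean of 0.5 FPKM only through the NEC pigs, so no p-value is given for it. LDHA, the subunit that forms L-lactate, differed by −0.05 (95% interval −0.39 to 0.29), and by 0.10 without pig 230-15. SLC16A3, a transporter that exports lactate, differed by −0.27 (SE 0.20).

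Neurotrophins keep neurons alive and shape their synapses, acting on TRK receptors and on the low-affinity receptor NGFR. Of 7 members tested, 6 were higher at both sites, against 38.6% of all entries, and BDNF was lower. The list's median of 0.28 was 0.20 without pig 230-15. BDNF, the main neurotrophin of the hippocampus, was at 10.95, 14.8, 18.9, 13.6 and 15.6 FPKM in No NEC pigs. It was at 13.4, 14.1, 14.6, 12.3 and 11.9 FPKM in Co-NEC pigs and at 9.01, 9.66, 12.1, 7.62, 10.18 and 12.7 in Si-NEC pigs. All 11 NEC pigs lay below the No NEC median of 14.8 FPKM, and 4 Si-NEC pigs lay below every No NEC pig. The difference of BDNF was −0.34 (SE 0.15, exact permutation p = 0.0375), at −0.51 for Si-NEC and −0.13 for Co-NEC (Si-NEC against Co-NEC, limma unadjusted p = 0.0124). Without pig 230-15, the highest No NEC pig, it was −0.25 (limma unadjusted p = 0.119). It was −0.05 in pigs with numbers ending in 14 and −0.52 in those ending in 15.

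NTRK2, the receptor of BDNF, was at 157, 114, 51.0, 112 and 95.2 FPKM in No NEC pigs and between 109 and 165 in NEC pigs. The lowest value was that of pig 230-15, and the difference of 0.44 (SE 0.18, exact permutation p = 0.0476) was 0.20 without it. NGFR was at 0.817, 0.454, 0.102, 0.847 and 0.507 FPKM in No NEC pigs, at 0.621 to 1.16 in Co-NEC and at 0.530 to 2.56 in Si-NEC pigs. All 11 NEC pigs lay above the No NEC median, and the difference was 0.63 (SE 0.26) with pig 230-15 and 0.45 without it. SORT1, the sortilin that routes neurotrophins through the cell, differed by 0.47 (SE 0.27), and by 0.08 without pig 230-15, which at 14.8 FPKM was the lowest of all. NTRK3 was at 0.11 (SE 0.12), and at 0.03 without pig 230-15.

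**Figure D5:**
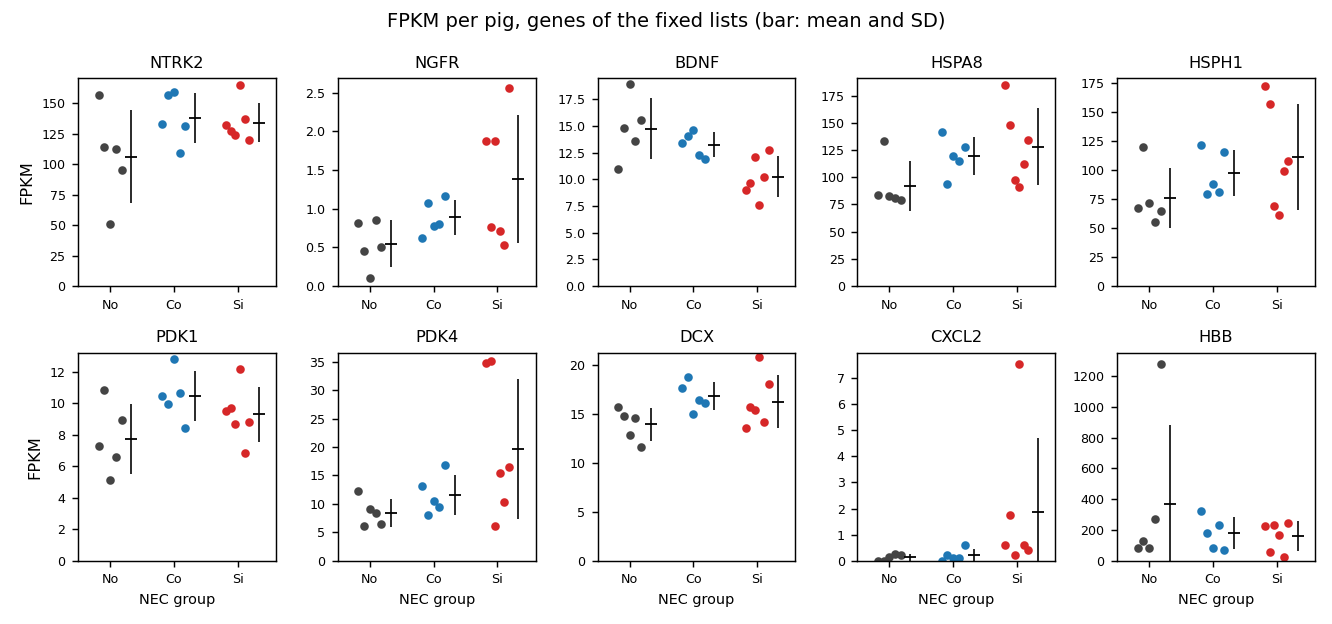
FPKM of each pig (y axis, from 0) in No NEC, Co-NEC and Si-NEC pigs (x axis) for 10 genes of the lists, with the mean and SD beside the points and bars that pass below 0 cut there. BDNF is lowest in Si-NEC pigs, 1 No NEC pig lies low in NTRK2 and NGFR, and 1 No NEC pig lies far above the rest in HBB.

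Genes of neurite outgrowth were read because spinal fluid of NEC pigs was tested for it in the study. DCX, which binds microtubules in young migrating neurons, was at 15.7, 14.8, 12.8, 14.6 and 11.7 FPKM in No NEC pigs. It was at 17.7, 18.8, 15.0, 16.4 and 16.1 FPKM in Co-NEC pigs and at 13.5, 15.7, 15.4, 20.8, 14.2 and 18.02 in Si-NEC pigs. Of the NEC pigs 6 lay above every No NEC pig and none below. The difference of DCX was 0.24 (SE 0.10, exact permutation p = 0.0247), at 0.21 for Si-NEC and 0.27 for Co-NEC. Without pig 550-14, the lowest No NEC pig, it was 0.18 (limma unadjusted p = 0.114). The 6 members tested had a median of −0.02. At both sites 2 were higher and 3 lower, against 38.6% and 32.9% of all entries. Without pig 230-15 the median turned to 0.06, with 4 members higher and 2 lower.

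Of the 6 genes for cytokines assayed in spinal fluid and their receptors, 5 were higher at both sites, against 38.6% of all entries. CXCL2 was among these 5, but it averaged 0.121 FPKM in No NEC pigs. It passed the minimum mean of 0.5 FPKM only through Si-NEC pigs, where it is high, so its direction is no support. The median of the 6 genes, CXCL2 included, was 0.20, and 0.09 without pig 230-15. VEGFA, the vessel growth factor, averaged 17.2 ± 3.86 FPKM (SD, n = 11) against 15.3 ± 5.68 (SD, n = 5). All 11 NEC pigs lay within the No NEC range, and the difference of 0.20 (95% interval −0.24 to 0.65) was 0.0093 without pig 230-15. Its receptor gene FLT1 differed by 0.40 (SE 0.25), and by 0.10 without that pig. CXCL2, a neutrophil chemokine, was listed at 0, 0, 0.136, 0.266 and 0.202 FPKM in No NEC pigs and at 0 to 0.595 in Co-NEC pigs. In Si-NEC pigs it was at 0.602, 1.74, 0.219, 7.54, 0.599 and 0.391 FPKM. The difference of CXCL2 was 1.34 for Si-NEC and 0.15 for Co-NEC, so its pooled value of 0.80 stood mainly on Si-NEC pigs.

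Inflammatory and hypoxia genes were read next, beside the 38.6% of all entries that were higher and the 32.9% lower at both sites. Of 8 targets of NF-kB, a transcription factor of inflammation, 5 were higher at both sites and 1 lower. Their median was 0.17, at 0.34 for Si-NEC and 0.04 for Co-NEC. IER3, an early response gene among them, differed by 1.52 for Si-NEC and 0.24 for Co-NEC, and of the 6 NEC pigs above the No NEC range 5 were Si-NEC pigs. S100A8, a calcium-binding protein of neutrophils, was at 0.764 to 3.08 FPKM in No NEC and 0.734 to 2.31 in Co-NEC pigs, and at 14.8, 21.2, 2.21, 24.97, 7.11 and 4.93 in Si-NEC pigs. The difference of S100A8 was 2.24 for Si-NEC and −0.23 for Co-NEC (Si-NEC against Co-NEC, limma unadjusted p = 0.000513), so it did not move the same way at both sites. Of 15 hypoxia genes 9 were higher and 5 lower at both sites, with a median of 0.05 that was 0.10 without pig 230-15. P4HA1, a collagen prolyl hydroxylase, differed by 0.46 (SE 0.25), and the vasodilator peptide gene ADM by 1.38 for Si-NEC and 0.11 for Co-NEC. Of 11 interferon genes 2 were higher and 5 lower at both sites. Their sum was 719 FPKM in Si-NEC pig 246-15 and lay between 66.4 and 159.9 FPKM in the other pigs.

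Markers of the labelled tissue were present in all pigs. The 6 hippocampal neuron markers tested, PROX1 and TBR1 among them, summed to 90.7 to 112 FPKM in No NEC, 95.8 to 103 in Co-NEC and 98.5 to 114 in Si-NEC pigs. Of the 12 markers listed, 7 were found by symbol. The 9 neuron markers summed to 2459 to 3466 FPKM in No NEC and 2356 to 3003 in NEC pigs. The 7 microglia markers summed to 74.7 to 180 FPKM in No NEC and 70.4 to 194 in NEC pigs, and the 5 astrocyte markers to 1003 to 1199 and 948 to 1584. No marker of these lists had an unadjusted p under 0.05 in limma. GAD1, the enzyme that makes GABA, had the smallest p of the neuron list, at −0.14 (SE 0.07, limma unadjusted p = 0.0638, exact permutation p = 0.0133), with 6 of 11 NEC pigs below every No NEC pig.

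The genes of smallest p in 8 further cell type lists did not pass the threshold, and each had an unadjusted limma p above 0.05. SOX9, a transcription factor of astrocytes, was at a log2 difference of 0.20 between any NEC and No NEC (SE 0.11), with 6 of 11 NEC pigs above every No NEC pig. CSF1R, the growth factor receptor of microglia, was at −0.21 (SE 0.15), with 7 of 11 NEC pigs below every No NEC pig, and at −0.10 without No NEC pig 540-14. It was at −0.66 in pigs with numbers ending in 14 and at 0.06 in those ending in 15. OPALIN, a membrane protein of myelinating oligodendrocytes, was at −0.42 (SE 0.26), and at −0.24 without No NEC pig 230-15. It was at −0.67 for Si-NEC and −0.11 for Co-NEC, and at 0.15 in pigs with numbers ending in 14 and −0.75 in those ending in 15. PDGFRA, the receptor that marks oligodendrocyte precursors, was at 0.43 (SE 0.27), and at 0.04 without pig 230-15, which at 3.67 FPKM was the lowest. ABCC9, a potassium channel subunit of pericytes, was at 0.45 (SE 0.25), and at 0.13 without that pig. TIE1, an endothelial receptor, was at −0.26 (SE 0.12) and the meningeal transporter gene SLC22A6 at −0.39 (SE 0.23). PTPRC, the leukocyte antigen CD45, was at −0.09 (SE 0.25). The 95% interval of the pooled difference, any NEC minus No NEC, held 0 in each of these 8 genes.

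Blood and choroid plexus differed between pigs more than between groups. Sums of the 3 erythroid markers tested ran from 85.6 to 1298 FPKM in No NEC, 72.3 to 329 in Co-NEC and 22.4 to 248 in Si-NEC pigs. HBB, the beta chain of hemoglobin, was at 83.1, 128, 82.3, 272 and 1281 FPKM in No NEC pigs. It was at 322, 180, 83.2, 233 and 71.6 FPKM in Co-NEC pigs and at 227, 59.0, 232, 169, 22.3 and 245 in Si-NEC pigs. The No NEC mean rested on pig 550-14, and 7 of 11 NEC pigs lay above the No NEC median. The difference of HBB was −0.57 (SE 0.65) and turned to 0.10 without pig 550-14. ALAS2, the first enzyme of heme synthesis in red cells, differed by −0.60 (SE 0.41) and had its highest value, 7.49 FPKM, in the same pig, without which the difference was −0.11. HBM differed by −1.30 (SE 0.62), with 5 NEC pigs listed at 0. TTR, the thyroxine carrier made by choroid plexus, ranged from 4.73 to 23.4 FPKM in No NEC and from 0 to 25.3 in NEC pigs, a difference of −0.90 (SE 0.66) that was −0.51 without Co-NEC pig 255-15. It was −0.35 for Si-NEC and −1.55 for Co-NEC. The sums of the 4 neutrophil and monocyte markers were 11.2 to 18.6 FPKM in No NEC, 9.97 to 11.9 in Co-NEC and 8.22 to 55.9 in Si-NEC pigs. The part of blood, choroid plexus and neutrophil RNA in the differences above was not tested.

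The nuclear genes of the respiratory chain make the electron carriers and the ATP synthase of mitochondria. Of 15 members tested, 12 were lower at both sites, against 32.9% of all entries, and 1 was higher, with a median of −0.14. COX5B, a subunit of cytochrome c oxidase, was at 334, 315, 748, 315 and 320 FPKM in No NEC pigs, at 275 to 327 in Co-NEC and at 266 to 560 in Si-NEC pigs. The difference of COX5B was −0.27 (SE 0.20), and −0.02 without pig 230-15. Without pig 230-15 the list's median turned to 0.07, with 12 members higher and 3 lower. The 6 cytosolic ribosomal protein genes all had opposite directions at the 2 sites, with a median of 0.07 for Si-NEC and −0.19 for Co-NEC. Their pooled median of −0.05, with all 6 lower, turned to 0.16 with all 6 higher without that pig. RPL27 was at 230, 227, 599, 237 and 265 FPKM in No NEC pigs. In both genes Si-NEC pig 223-15 was the highest NEC pig, at 560 FPKM in COX5B and 503 in RPL27.

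Synaptic genes gave small values. The counts here stand beside 38.6% of all entries higher and 32.9% lower at both sites. Of 9 vesicle release genes 6 were lower at both sites, with a median of −0.07 that was 0.01 without pigs 223-15 and 230-15. Of 10 glutamate receptor genes 7 were higher at both sites, with a median of 0.08 that was 0.05 without pig 230-15. Of the immediate early genes, which follow neuronal activity, 0 of 8 were higher at both sites and 3 lower. NR4A2 among them differed by −0.25 (SE 0.12), with 10 of 11 NEC pigs below the No NEC median, and by −0.14 without pig 230-15. Of 12 cholesterol synthesis genes 0 were higher and 5 lower at both sites. FDPS, which makes farnesyl diphosphate, led them at −0.35 (SE 0.17), and at −0.13 without pig 230-15. RAB3A, a small GTPase of synaptic vesicles, was at −0.23 (SE 0.15), and at −0.04 without that pig. C3, the central complement protein, was at 0.16 (SE 0.19), and at 0.09 without pig 230-15. It was at −0.03 for Si-NEC and 0.38 for Co-NEC (Si-NEC against Co-NEC, limma unadjusted p = 0.0598). AURKB, a mitotic kinase, was at −0.27 (SE 0.17), and at −0.08 without pig 230-15. The lists of mature oligodendrocytes and of proliferation had medians of −0.01 and −0.06, the first of which was 0.12 without pig 230-15.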

How the data were processed

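The authors aligned reads with TopHat2 2.1.1 to Sscrofa10.2, by the submitters' processing notes, and deposited FPKM from Cufflinks 2.2.1 for 24594 entries of 21956 gene IDs. These values were used without further scaling. The 1779 entries identical to another in every value were dropped, and the 13590 with a mean of at least 0.5 FPKM were tested on log2(FPKM + 0.5), which understates changes of low genes. Symbols were known for 9068 entries (66.7%) by the files and a RefSeq gene table of Sscrofa11.1, so no coordinates are given. The 11 NEC and 5 No NEC pigs were compared with limma 3.58.1 in R 4.3.3 (lmFit, eBayes with a trend, no covariate, Benjamini-Hochberg adjustment, the study's threshold of 0.2), each site, the site difference and the sex interaction likewise. Single genes were compared by a two-sided exact permutation test over 4368 splits. Plots were made in Python 3.11.15 with matplotlib 3.10.9. The fit was tested on simulated data.

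Groups and sex came from the sample labels, and p-values set the group difference against the spread between pigs. Pigs were treated as independent, though some may share a litter, which the labels do not give. No read counts were held, so depth, counting intervals and detection limits are unknown. Named were the 12 higher and 12 lower genes of smallest p that had a symbol, were above 0 in all pigs and had one direction at both sites, the member of smallest p of each list, and HBB, TTR, VEGFA and LDHA where tested. AQP4, SLC16A1 and GAP43 were to be named too but were not matched by symbol. Of the genes so selected, 4 are not reported here. Other list members were named after their values were seen. The comparison, the rule and the lists were chosen with earlier results of these data known. The alternatives were other pseudocounts, filters, scaling, covariates, eBayes settings, array weights, all groups in one fit, and pigs left out, of which the list medians without pigs 223-15 and 230-15 were added after seeing the data.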

Additional observations from a re-analysis of the deposited data

Results flagged for a closer look

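Within groups, 1 pig stood far from the others in 32 of 210 groups of values of the named genes. No chance rate is set beside this count, since some genes were named after their values were seen. Those flagged here are HSPH1, DNAJB1, HSPA5, COX5B, COX4I1, ADM, CXCL2, HBM, SLC16A7 and NTRK3. The gap of the highest or lowest pig was compared with the group's range by Dixon's 95% critical value. All values are FPKM of single pigs.

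No NEC pig 230-15 was the highest of its 5 pigs in HEXD (10.8), RAB3A (457), FDPS (186), RPL27 (599), COX5B (748) and COX4I1 (1198), and the lowest in FLT1 (2.80). Si-NEC pig 223-15 was the highest of its 6 pigs in TBR1 (17.4), RAB3A (308), RPL27 (503), COX5B (560) and COX4I1 (825), and the lowest in TIE1 (5.16) and NTRK3 (19.96). These 2 pigs thus stood apart in the same direction in RAB3A, RPL27, COX5B and COX4I1, which act in vesicle release, translation and respiration. No NEC pig 228-15 was the highest in HSPA8 (133), HSPH1 (120), DNAJB1 (86.6), HSPA5 (201) and SLC4A5 (2.17), of which HSPH1, DNAJB1 and HSPA5 were named after their values were seen. No NEC pig 550-14 was the highest in the 3 erythroid genes, HBB (1281), ALAS2 (7.49) and HBM (9.28). Si-NEC pig 246-15 was the highest in TTR (25.3), ADM (9.72) and CXCL2 (7.54). Si-NEC pig 547-14 was the highest in CPXM1 (4.22) and OPALIN (53.4).

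Single values were those of NAALADL1 (1.13, Si-NEC pig 539-14, highest), SLC16A7 (0.798, Si-NEC pig 224-15, highest) and CSF1R (15.6, No NEC pig 540-14, highest). The lowest Co-NEC values were those of AURKB (0.665, pig 552-14) and C3 (3.93, pig 225-15). What sets these pigs apart was not tested.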

How the results depend on the processing

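No paired analysis was possible because the labels give the groups no shared replicate numbers. For any NEC against No NEC, no entry had an adjusted p under 0.2 or 0.05 under any alternative run, with 1 exception. All 3 groups in one fit called COX1, which is listed at 0 in all No NEC and Si-NEC pigs. The count with an unadjusted p under 0.05 was 582 and ran from 367 without pig 550-14 to 1225 without pig 228-15, with 891 without pig 540-14 and 381 without pig 230-15, and lay between 457 and 709 under the alternatives that leave out no single pig. Of the 582 entries, 193 reached it in the same direction without pig 230-15, and 215 without pigs 223-15 and 230-15. The separation of the groups had p between 0.0603 and 0.357 (exact permutation test) with single pigs left out and between 0.134 and 0.285 otherwise. Of 971 values of the 70 named genes under alternatives, 4 changed direction, and of 1120 with a single pig left out, 5 did. RPL27 and LDHA turned to 0.0388 and 0.0322 with array weights. Without pigs 223-15 and 230-15 RPL27 was 0.0942 and LDHA 0.0564. With single pigs left out PTPRC ran from −0.28 to 0.10, RPL27 from −0.17 to 0.18, LDHA from −0.16 to 0.10, COX4I1 from −0.35 to 0.0544 and HBB from −0.89 to 0.10. Rescaling by the median of ratios shifted the median difference of all entries by −0.01 and turned the entries with an unadjusted p under 0.05 from 357 higher and 225 lower to 294 higher and 318 lower. For genes in general the spread between pigs within the groups limits what can be seen. The 95% interval reached a median of 0.32 to either side on the log2 scale. The cause of these changes was not tested.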
